A study of Mus musculus with 4 samples.

Results

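S100 proteins are small calcium-binding proteins of the EF-hand type, most of which work as dimers. The values below follow 6 members of the family, S100a8, S100a9, S100a4, S100a6, S100a10 and S100a11, through in vitro generated myeloid-derived suppressor cells (MDSCs), which are bone marrow cells of the neutrophil and monocyte lineages that can restrain T cells. The members were taken by gene symbol from the 32285 gene rows of the files (6 of 32285), and each symbol had a row. S100a8 and S100a9 pair to form calprotectin, an abundant cytosolic protein of neutrophils that can be released and binds the receptors TLR4 and RAGE. S100a4, S100a6, S100a10 and S100a11 were grouped as members associated with monocytes. S100a4 binds non-muscle myosin, S100a10 and S100a11 bind annexins, and S100a6 binds annexins and the protein encoded by Cacybp.

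The cells were grown from mouse bone marrow for 4 days with 40 ng/mL of each of the cytokines GM-CSF and IL-6, and live CD11b+ cells were sorted on day 4 and profiled by droplet scRNA-seq, in which each captured RNA is counted once through a unique molecular identifier (UMI). There were 4 libraries with 1 library per group. WT+PBS and WT+ISO came from WT mice (C57BL/6J). ISO is isoproterenol, a synthetic catecholamine, given at 10 µM from the start of culture, and WT+PBS received none (0 µM). The other 2 libraries came from mice of another genotype and are set against no group here. They enter the clustering, the means and ranges over 4 libraries, and the values given without a name. According to the methods of the study the mice were between 6 and 10 weeks old, and the number of mice behind a culture is not given in the sources used here. The sample titles and the methods place ISO in WT+ISO and not in WT+PBS, whereas the labels' treatment field names it for both, and the titles were followed. Cells of the 4 cultures carried separate tags and were pooled before capture, and no cell barcode was shared between libraries.

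After filtering, 9303 of 9525 cells remained, with 2039 to 2790 cells, 19357824 to 29400468 UMIs and a median of 7484 to 10252 UMIs per cell in a library. Itgam, which encodes CD11b, was present in each library (290.0 to 363 UMIs per 1000000 UMIs, abbreviated CPM). Xist at 359 to 389 CPM and at most 7 UMIs of the Y-linked Ddx3y were found in the 4 libraries, the pattern of female mice. Since each group is 1 library, no test between conditions was possible, and the 95% intervals of ratios (exact conditional binomial) and of CPM values (exact Poisson) leave out how cultures or mice vary and hold for counting error alone.

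All 6 members lie on chromosome 3 of GRCm38, the build named in the labels as mm10. S100a4 (ENSMUSG00000001020) spans chr3:90603770-90606045, S100a6 (ENSMUSG00000001025) chr3:90612894-90614414, S100a8 (ENSMUSG00000056054) chr3:90669071-90670034 and S100a9 (ENSMUSG00000056071) chr3:90692630-90695721. S100a11 (ENSMUSG00000027907) at chr3:93520496-93526288 and S100a10 (ENSMUSG00000041959) at chr3:93555117-93564645 stand apart from these. The 250 bases before the annotated start are shown for S100a8 and S100a9, which had nearly the same ISO ratio in WT, and for S100a4 and S100a6, which were grouped together but differed in the cells that held them. The sequences are from RefSeq (GRCm38.p6) and run 5' to 3' on the strand of the gene, with motif matches in capitals.
S100a8, chr3:90668821-90669070, plus strand: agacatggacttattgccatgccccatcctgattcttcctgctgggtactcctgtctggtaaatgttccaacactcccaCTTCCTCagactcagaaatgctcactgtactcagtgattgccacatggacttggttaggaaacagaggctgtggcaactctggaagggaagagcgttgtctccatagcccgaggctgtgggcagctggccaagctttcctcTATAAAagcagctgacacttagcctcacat
S100a9, chr3:90695722-90695971, minus strand: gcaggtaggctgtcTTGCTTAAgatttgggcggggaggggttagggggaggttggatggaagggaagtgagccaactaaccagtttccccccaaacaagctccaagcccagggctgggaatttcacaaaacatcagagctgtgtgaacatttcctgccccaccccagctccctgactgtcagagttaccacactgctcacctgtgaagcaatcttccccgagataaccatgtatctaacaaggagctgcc
S100a4, chr3:90603520-90603769, plus strand: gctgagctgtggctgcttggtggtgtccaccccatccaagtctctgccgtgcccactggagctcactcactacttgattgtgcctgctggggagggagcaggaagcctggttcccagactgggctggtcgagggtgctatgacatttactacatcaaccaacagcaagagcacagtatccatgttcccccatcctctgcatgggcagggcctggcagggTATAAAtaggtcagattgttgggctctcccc
S100a6, chr3:90612644-90612893, plus strand: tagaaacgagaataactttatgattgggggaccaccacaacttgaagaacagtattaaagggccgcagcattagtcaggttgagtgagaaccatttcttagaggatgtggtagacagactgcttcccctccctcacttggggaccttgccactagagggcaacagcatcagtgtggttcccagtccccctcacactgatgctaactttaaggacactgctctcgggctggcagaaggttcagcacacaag

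The windows were searched for a TATA box (TATAAA, gene strand) and, on both strands, for a C/EBP motif (TTGCNNAA), a PU.1 motif (GAGGAAG), a STAT motif (TTCNNNGAA) and the core of the cAMP response element (TGACG). S100a8 held a TATA box at positions -30 to -25 from the start and S100a4 one at positions -31 to -26, a motif found in 7.59% of all 32851 promoter windows of the same length. S100a8 also held a PU.1 match at positions -171 to -165 (10.6% of all windows), and S100a9 a C/EBP match at positions -236 to -229 (9.56% of all windows). The letters of the STAT motif (7.02% of all windows) and of the cAMP response element core (17.8% of all windows) were not in the windows of S100a8, S100a9, S100a4, S100a6 or S100a11. S100a6 and S100a11 held no match to any of the 5 motifs. The promoter table had sequences for 5 of the 6 members, S100a10 being the other.

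Together the members made up between 11.3% and 13.6% of all UMIs of a library, nearly all of it from the calprotectin genes. S100a8 had 50412 CPM in WT+PBS, 58818 CPM in WT+ISO, and 47346 and 53457 CPM in the other 2 libraries. S100a9 had 61123 CPM in WT+PBS, 71098 CPM in WT+ISO, and 58155 and 66489 CPM in the other 2. For both genes WT+ISO was the highest library, and the order of the 4 libraries was the same.

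S100a4 had 587 CPM in WT+PBS, 314 CPM in WT+ISO, and 780 and 654 CPM in the other 2 libraries. S100a10 had 510 CPM in WT+PBS, 323 CPM in WT+ISO, and 635 and 542 CPM in the other 2. WT+ISO was the lowest library for both genes, and for both the order of the 4 libraries was the same. S100a6 had 4077 CPM in WT+PBS, 3928 CPM in WT+ISO, and 4768 and 5073 CPM in the other 2, so that the WT libraries lay close together. S100a11 had 1638 CPM in WT+PBS, 1305 CPM in WT+ISO, and 1540 and 1530 CPM in the other 2, with WT+ISO below the other 3. A pseudogene of S100a11 has no row of its own in the files, and how reads shared with it were counted is not given in the sources used here.

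**Figure D1:**
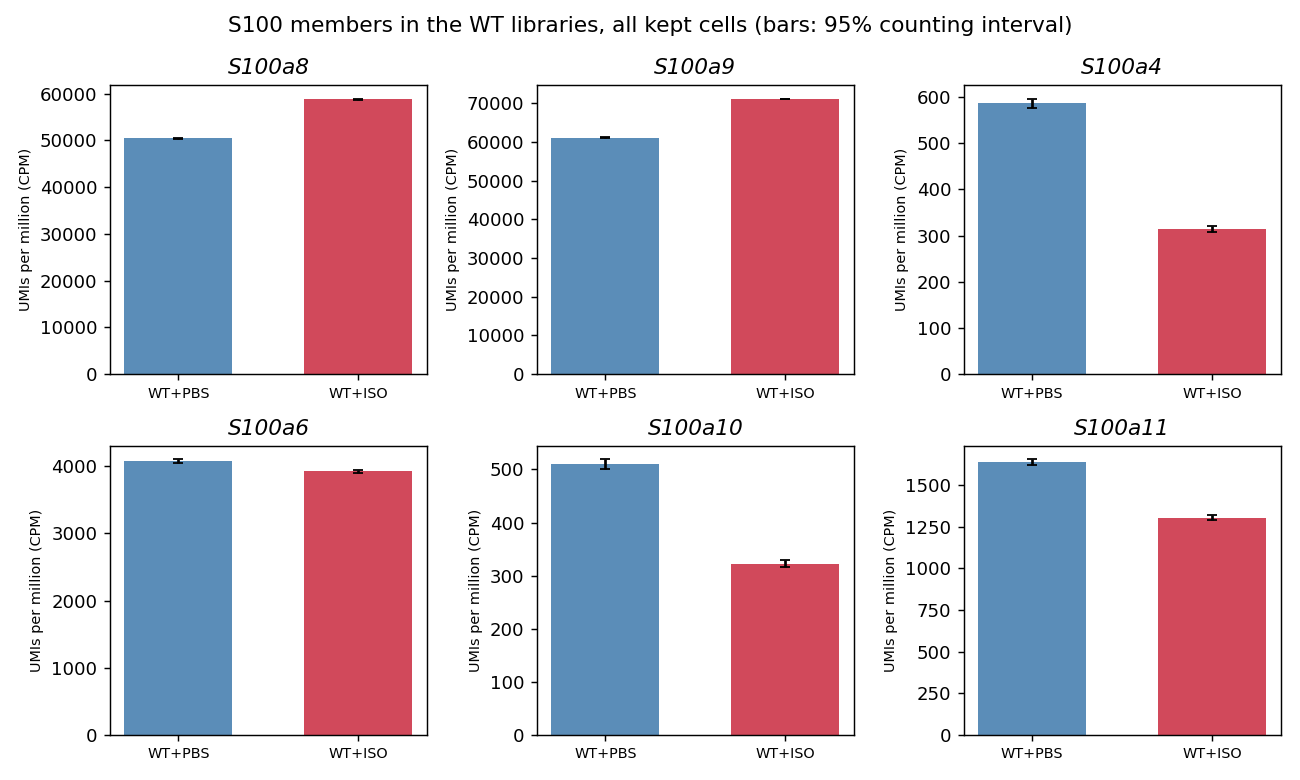
Level of each member over all kept cells of WT+PBS and WT+ISO, in UMIs per 1000000 UMIs (CPM, linear axis from 0, a separate scale for each gene), 1 bar per library with its 95% counting interval. S100a8 and S100a9 had the taller bar for WT+ISO, S100a4, S100a10 and S100a11 had the taller bar for WT+PBS, and S100a6 differed little (4077 and 3928 CPM).

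The files hold 17 rows of S100 genes in all. Of the 11 that are not members, S100a1 (91.5 to 106 CPM) and S100a13 (155 to 165 CPM) had at least 100 UMIs in a library, 7 had fewer, and S100a16 and S100z had none among 19357824 to 29400468 UMIs per library. S100a1 and S100a13 overlap on chromosome 3.

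To place the members in cell types, all cells were clustered by the Leiden method without any S100 gene among the genes used, and clusters were named from marker lists. Of the 7 clusters, 3 carried neutrophil markers. An azurophil-granule progenitor-like cluster (1521 cells) was led by Nkg7, Mpo and Elane, a specific-granule neutrophil-like cluster (1467 cells) held Ltf and Camp among its leading genes, and a mature neutrophil-like cluster (1571 cells) was led by Retnlg and Mmp9. A macrophage-like cluster (1088 cells) was led by C1qb, and a small dendritic cell-like cluster (104 cells) by Ccl5 and Ccr7. The other 2 clusters stayed unnamed and are called here by their leading genes. The Csta3 and Matn2 cluster (1750 cells) had the deepest cells, with a median of 18274 UMIs, and the Gpnmb and Atp6v0d2 cluster (1802 cells) the shallowest, with a median of 2995 UMIs. No cluster carried the name monocyte at this resolution. Cluster values below are CPM within a cluster, as the mean ± SD over the 4 libraries, and since clusters come from the same cells they are descriptions without a test. Overlap refers to the ranges over the libraries, and clusters that overlap can still keep their order within each library.

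S100a8 was highest in the specific-granule neutrophil-like cluster at 111252 ± 2107 CPM, followed by the mature neutrophil-like cluster at 106126 ± 1647 CPM and the progenitor-like cluster at 68105 ± 1736 CPM. The 4 libraries of each of these clusters lay clear of those of the next. The Csta3 and Matn2 cluster (38068 ± 2261 CPM) and the Gpnmb and Atp6v0d2 cluster (33359 ± 4809 CPM) followed and overlapped over the libraries. The macrophage-like cluster had 6503 ± 1071 CPM and the dendritic cell-like cluster 3546 ± 2498 CPM, and these overlapped as well. S100a9 kept the same order, from 147709 ± 4402 CPM and 143080 ± 3831 CPM in the specific-granule and mature neutrophil-like clusters, which overlapped, to 5252 ± 573 CPM in the macrophage-like and 4071 ± 2654 CPM in the dendritic cell-like cluster. Within each of the 4 libraries S100a9 was higher in the specific-granule than in the mature neutrophil-like cluster. S100a8 and S100a9 summed came to 251161 to 264786 CPM in the specific-granule neutrophil-like cluster.

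The ratio of the calprotectin genes to each other varied by cluster. The mature and specific-granule neutrophil-like clusters held 0.742 ± 0.023 and 0.754 ± 0.018 S100a8 UMIs per S100a9 UMI, and the progenitor-like cluster 0.797 ± 0.030. The ratio was 0.925 ± 0.009 in the Csta3 and Matn2 cluster and 0.962 ± 0.064 in the Gpnmb and Atp6v0d2 cluster. In the macrophage-like cluster it was 1.23 ± 0.08, with 1.14 to 1.33 over the 4 libraries, above every value of the other clusters. For Ngp, which encodes a neutrophil granule protein, there were 3.78 ± 0.20 S100a8 UMIs per Ngp UMI in the specific-granule neutrophil-like cluster, 7.78 ± 1.01 in the mature neutrophil-like, 52.5 ± 9.5 in the Csta3 and Matn2, and 43.1 ± 28.1 (21.7 to 84.5) in the macrophage-like cluster.

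S100a4 ran in nearly the opposite order. It was highest in the dendritic cell-like cluster (2376 ± 567 CPM) and the macrophage-like cluster (1815 ± 248 CPM), which overlapped over the libraries, and then in the Csta3 and Matn2 (616 ± 108 CPM) and the Gpnmb and Atp6v0d2 cluster (493 ± 20 CPM), which overlapped too. It was down to 127 ± 6 CPM in the mature neutrophil-like, 55.6 ± 11.4 CPM in the specific-granule neutrophil-like and 29.2 ± 8.1 CPM in the progenitor-like cluster, each clear of the next. The macrophage-like cluster held 64.6 ± 14 times the S100a4 level of the progenitor-like cluster (48.3 to 81.7 times over the libraries). S100a10 had 1431 ± 149 CPM in the macrophage-like and 1308 ± 69 CPM in the dendritic cell-like cluster, which overlapped. It had 630 ± 76 CPM in the Csta3 and Matn2 and 436 ± 41 CPM in the Gpnmb and Atp6v0d2 cluster. The neutrophil-like clusters had 78.5 ± 15.3 CPM (mature), 47.6 ± 14.7 CPM (progenitor-like) and 34.2 ± 11.2 CPM (specific-granule), with overlap between neighbours. Within each of the 4 libraries these clusters kept that order.

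S100a6 did not share this order, although it was grouped with S100a4 and S100a10. It was highest in the mature neutrophil-like cluster, with 15759 CPM in WT+PBS, 13068 CPM in WT+ISO, and 16244 and 14570 CPM in the other 2 libraries (mean 14910 ± 1415 CPM). These 4 values lay above every value of every other cluster. The specific-granule neutrophil-like cluster (7926 ± 219 CPM) and the Gpnmb and Atp6v0d2 cluster (6937 ± 676 CPM) came next and overlapped. The Csta3 and Matn2 (3333 ± 653 CPM), macrophage-like (2850 ± 415 CPM), dendritic cell-like (1994 ± 592 CPM) and progenitor-like clusters (1731 ± 232 CPM) followed, each overlapping its neighbour. Of these, the Csta3 and Matn2, macrophage-like and dendritic cell-like clusters kept their order within each of the 4 libraries. From the progenitor-like to the specific-granule neutrophil-like cluster the level was 4.63 ± 0.50-fold higher, and from there to the mature neutrophil-like cluster 1.89 ± 0.23-fold higher, so that the mature cells held 8.81 ± 1.95 times the level of the progenitor-like cells. Over the same steps S100a8 changed 1.63 ± 0.04-fold and then 0.954 ± 0.017-fold. At a finer resolution of 0.8, a cluster of 603 cells led by Csta3 and Csta2 took the name monocyte-like narrowly, since its monocyte markers averaged a log2 ratio of 1.01 where 1 was required and F13a1 was the only one of them among its 10 leading genes. It had 1110 CPM of S100a4, 959.9 CPM of S100a10, 5756 CPM of S100a6 and 42447 CPM of S100a8 as means over the libraries, against 14974 CPM of S100a6 in the mature neutrophil-like cluster of that resolution. The folds between neutrophil-like clusters also depend on the resolution. At 0.8 the progenitor-like name went to 617 cells, with 670 CPM of S100a6 and 47777 CPM of S100a8. Clusters of 943 and 1223 cells both took the specific-granule name there. They had 2799 and 7701 CPM of S100a6, and 87112 and 113021 CPM of S100a8. Gpnmb and Atp6v0d2 led only 325 cells at 0.8. Acta2 and Csf1, also leading genes of the Gpnmb and Atp6v0d2 cluster above, led a separate unnamed cluster of 1502 cells. The 325 cells had means of 142 CPM of S100a4, 196 CPM of S100a10 and 1438 CPM of S100a11. The 1502 cells had 500, 468 and 2556 CPM of these genes. How far each group made up the cluster above was not tested.

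S100a11 was the most even member. It had 2931 ± 356 CPM in the mature neutrophil-like cluster and from 2043 ± 72 CPM to 2344 ± 268 CPM in the dendritic cell-like, the Gpnmb and Atp6v0d2, the macrophage-like and the specific-granule neutrophil-like clusters, all of which overlapped their neighbours. Within each of the 4 libraries the mature neutrophil-like cluster was above the dendritic cell-like cluster. The Gpnmb and Atp6v0d2 cluster was likewise above the macrophage-like cluster. The Csta3 and Matn2 (995 ± 105 CPM) and the progenitor-like cluster (888 ± 32 CPM) lay lower and overlapped each other. The mature neutrophil-like cells held 3.30 ± 0.39 times the level of the progenitor-like cells and 1.38 ± 0.07 times that of the macrophage-like cells.

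**Figure D2:**
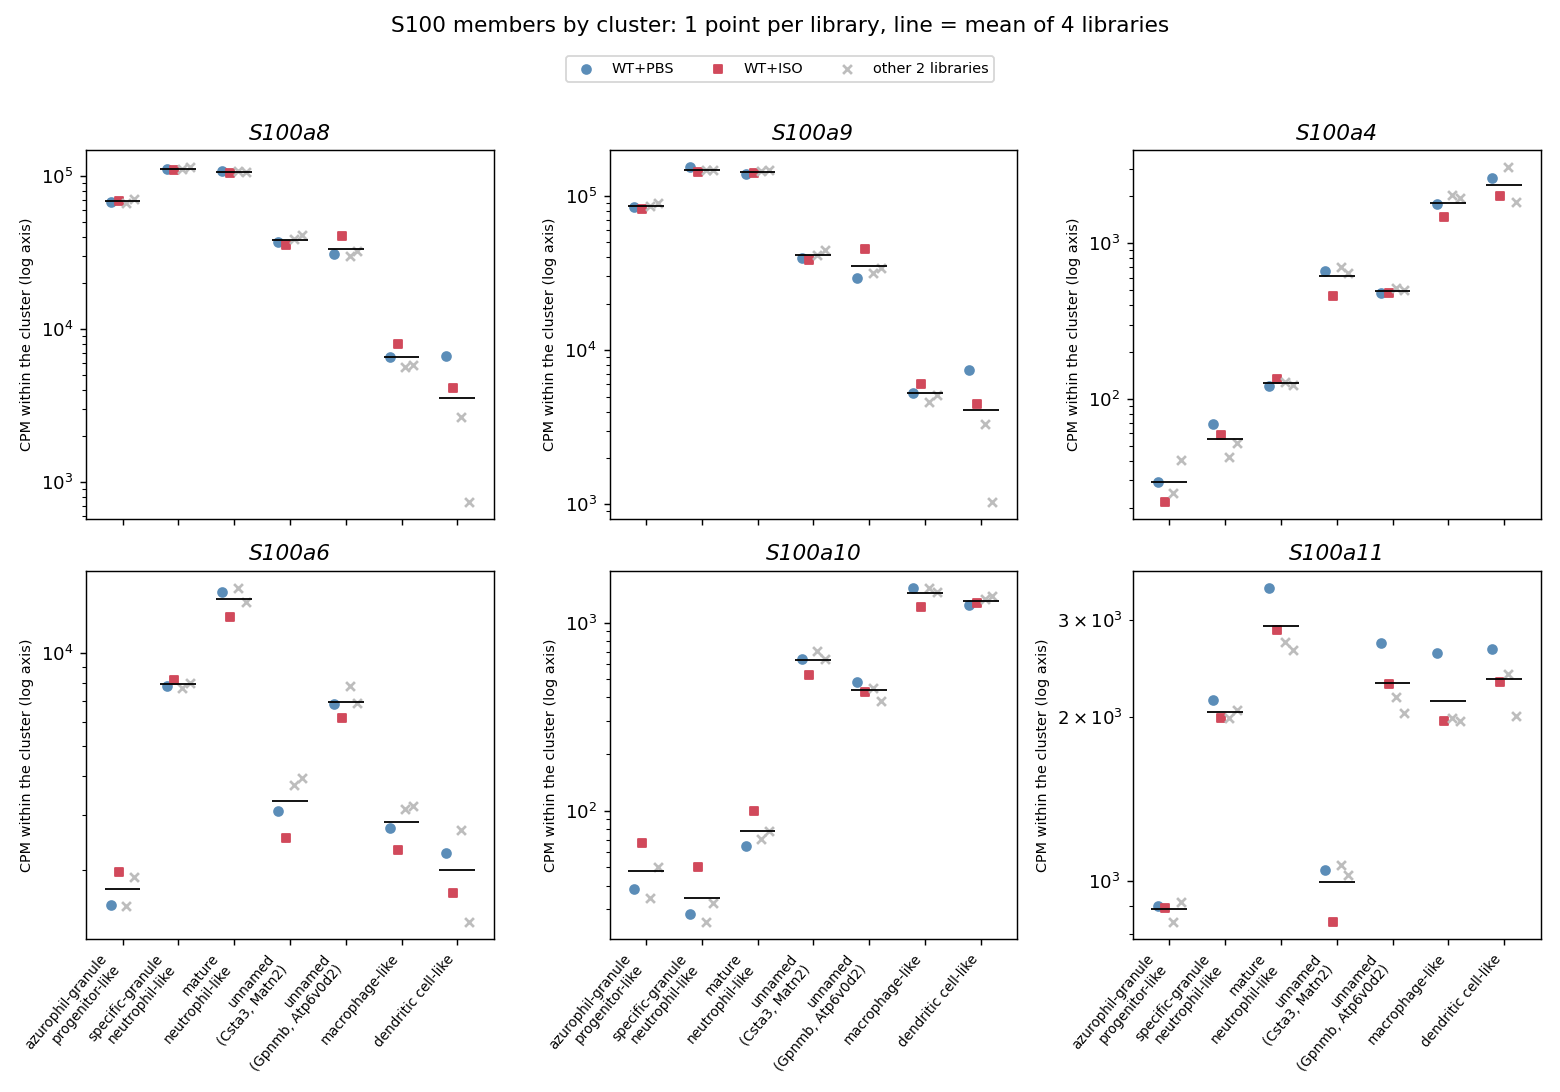
CPM of each member within each cluster (log axis), 1 point per library (crosses for the other 2 libraries beside WT+PBS and WT+ISO) and a line at the mean of the 4 libraries. S100a8 and S100a9 were highest in the specific-granule and mature neutrophil-like clusters, S100a4 and S100a10 in the macrophage-like and dendritic cell-like clusters, and S100a6 in the mature neutrophil-like cluster at 13068 to 16244 CPM.

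Set over all neutrophil-like against all other clusters within each library, S100a9 was higher by 1.88 ± 0.22 and S100a8 by 1.59 ± 0.17 on the log2 scale (mean ± SD, n = 4 libraries). S100a4 differed by -4.17 ± 0.32 and S100a10 by -4.07 ± 0.63. S100a6 was higher in the neutrophil-like clusters in all 4 libraries (0.61 ± 0.14), and S100a11 had either sign (0.04 ± 0.19, from -0.20 in WT+PBS to 0.22 in WT+ISO). The sum of the calprotectin genes gave 1.75 ± 0.20. The sum of the other 4 members gave 0.06 ± 0.17, less than its spread over the libraries, but 0.456 with each cell at equal weight, 0.286 with library totals that leave out S100a8 and S100a9, and 0.259 with no marker required among leading genes, so that this reading depends on the weighting and naming. S100a6 supplied most of that sum.

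The level of each gene therefore drew on different cells. The neutrophil-like clusters supplied 65.8% to 75.6% of S100a8 UMIs and 70.7% to 78.3% of S100a9 UMIs, while they supplied 36.3% to 54.6% of all UMIs. They supplied 2.35% to 7.92% of S100a4 UMIs and 2.26% to 11.7% of S100a10 UMIs. For S100a6 the share was 46.6% to 66.4% and for S100a11 35.9% to 58.3%, in each case highest in WT+ISO. The macrophage-like cluster supplied 39.6% of WT+PBS and 30.2% of WT+ISO UMIs of S100a4, while the Csta3 and Matn2 cluster supplied 38.6% and 47.9%.

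**Figure D3:**
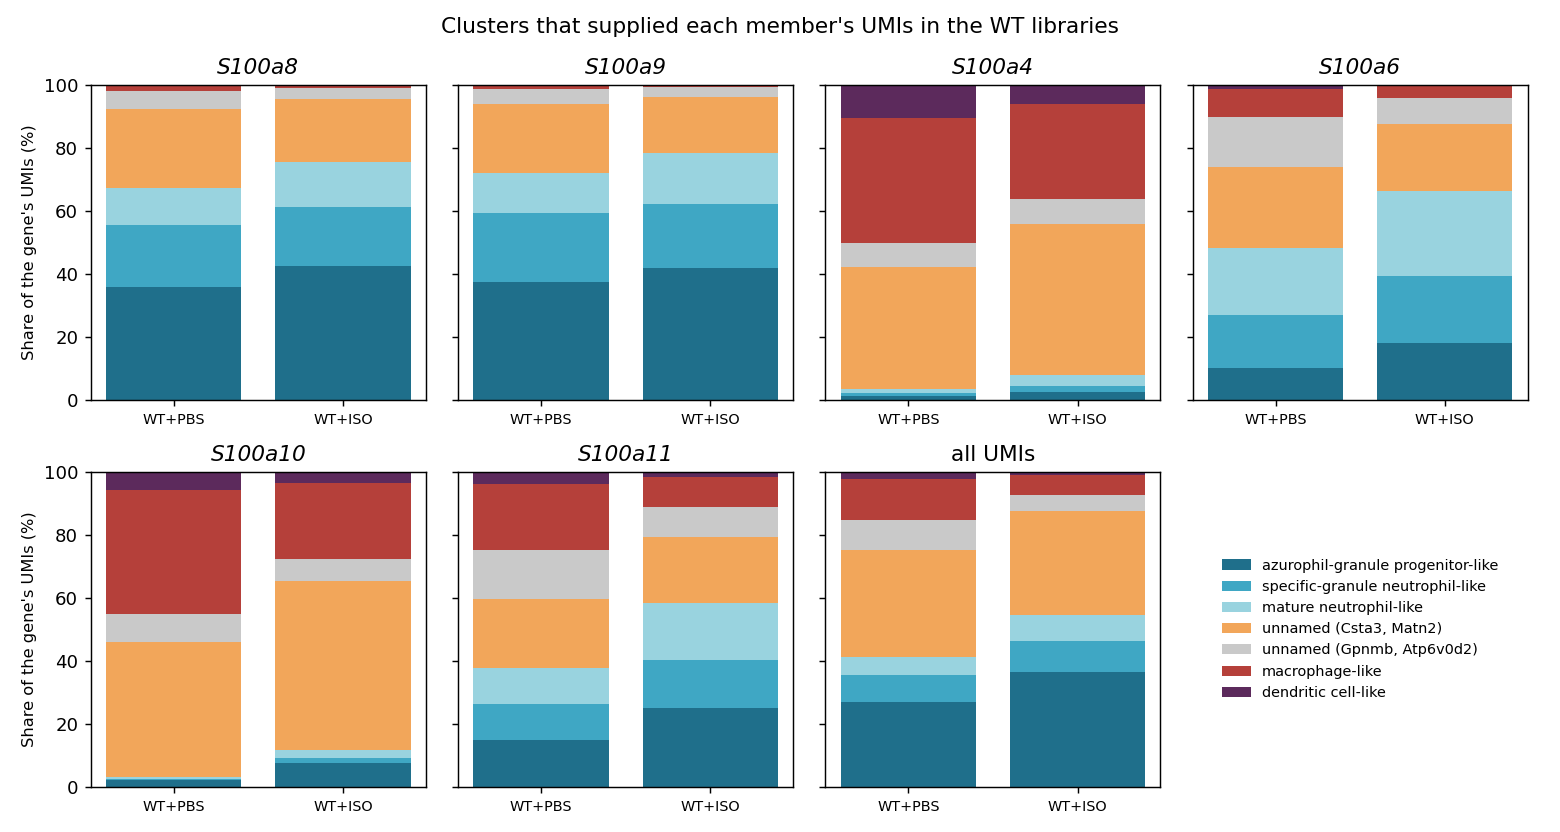
Share of each member's UMIs (percent, stacked to 100) that came from each cluster in WT+PBS and WT+ISO, with all UMIs in the last panel. Neutrophil-like clusters, in blue, supplied 67.2% and 75.6% of S100a8 UMIs and 3.22% and 11.7% of S100a10 UMIs.

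The members were also followed over single cells, after each cell was thinned to 2000 UMIs so that depth was equal, which left out 710 of 9303 shallower cells (181 in WT+PBS, 127 in WT+ISO, and 218 and 184 in the other 2 libraries). Of these, 523 were in the Gpnmb and Atp6v0d2 cluster, where 1279 of 1802 cells remained. In the specific-granule neutrophil-like cluster a cell had a median of 221.5 to 230.0 S100a8 UMIs of its 2000 in the 4 libraries. In the Csta3 and Matn2 cluster the median was 71 to 82.5, with the 10th percentile at 14 to 23.5 and the 90th at 151.6 to 168.5. The Gpnmb and Atp6v0d2 cluster was broader, with a median of 26 in WT+PBS, 54 in WT+ISO, and 17.5 and 33.5 in the other 2 libraries, and a 90th percentile of 159.8 to 179.8 in all 4. In the macrophage-like cluster the median was 3 to 4 and the 90th percentile 32 to 38.8. In the dendritic cell-like cluster the median was 1 to 2 UMIs, and the 15 to 37 cells per library gave its mean little precision.

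S100a6 was found in 99.7% to 100% of thinned mature neutrophil-like cells, with a median of 24 UMIs in WT+ISO and 28 to 32 in the other libraries. It was found in 67.1% to 77.2% of thinned progenitor-like cells, with a median of 2 to 3. S100a4 was found in 87.5% to 90.6% of thinned macrophage-like cells against 3.23% to 5.03% of progenitor-like cells, and S100a10 in 88.8% to 93.8% against 3.85% to 8.71%. The shares in thinned progenitor-like cells stand here as a low reference, and whether they are background was not tested. Unthinned, S100a4 was found in 20.0% to 24.4% of progenitor-like cells and S100a10 in 28.3% to 52.1%. Over all cells the unthinned S100a4 share was 36.4% to 49.4%. In the Csta3 and Matn2 cluster S100a4 was found in 42.7% to 57.9% of thinned cells and S100a10 in 58.9% to 69.9%. These shares lay well above those of thinned progenitor-like cells.

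**Figure D4:**
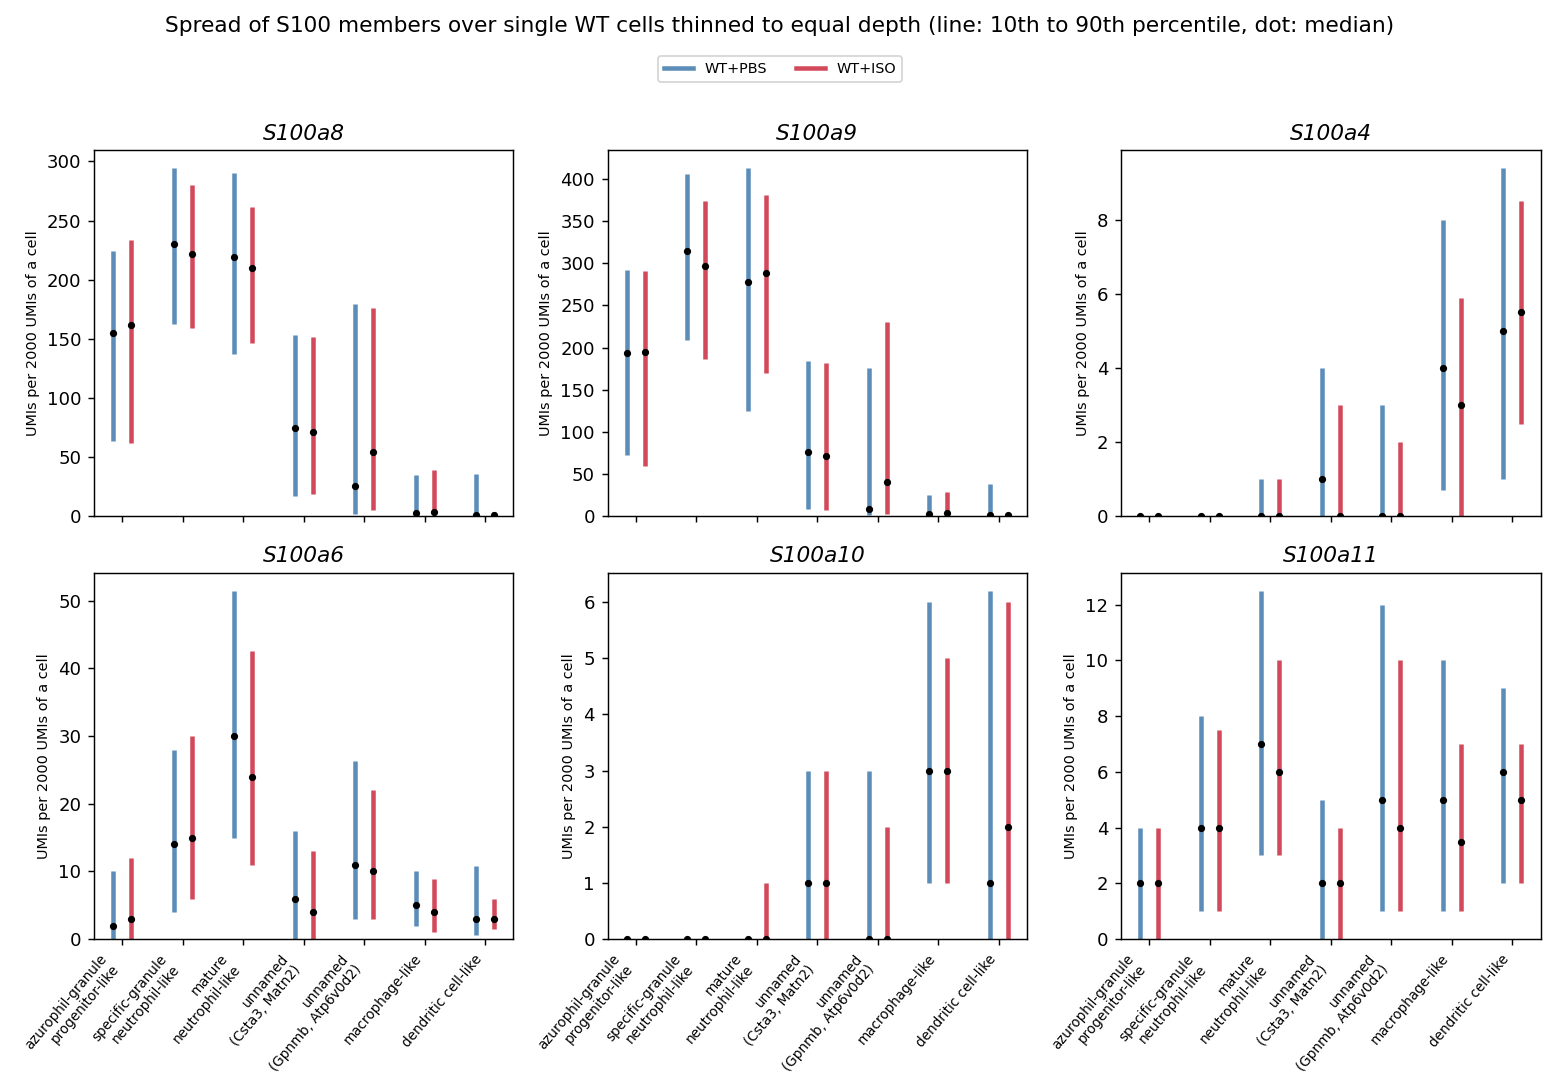
UMIs of each member among 2000 UMIs of a cell (linear axis), with a line from the 10th to the 90th percentile of cells and a dot at the median, by cluster in WT+PBS and WT+ISO. S100a8 in the Gpnmb and Atp6v0d2 cluster ran from a 10th percentile of 2 UMIs to a 90th of 179.8 in WT+PBS and from 5 to 176.2 in WT+ISO, and S100a6 had its highest medians, 30 and 24, in the mature neutrophil-like cluster.

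Over thinned cells of a library, S100a8 and S100a9 followed each other closely (Pearson r of 0.924 to 0.943 on log counts over 1855 to 2572 cells), and S100a4 followed S100a10 less tightly (0.456 to 0.615). Within the Csta3 and Matn2 cluster the r of S100a8 with S100a9 was still 0.906 to 0.922, whereas within the specific-granule neutrophil-like cluster, where both were uniformly high, it was 0.02 to 0.45. Over 24 sums of at least 50 cells by cluster and library, which share libraries and cells, r was 0.999 for S100a8 with S100a9, 0.964 for S100a4 with S100a10, 0.796 for S100a6 with S100a11, -0.063 for S100a4 with S100a6 and -0.841 for S100a8 with S100a4. Among 7717 genes with at least 1000 UMIs, those most like S100a8 and S100a9 over these sums were Abca13 (0.987 and 0.988), Padi4 (0.977 for both) and Ccnd3 (0.968 and 0.970), with Lcn2, a specific-granule gene, as the fifth for both. Those most like S100a4 were Pid1 (0.984) and Abr (0.983). Those most like S100a10 were Capza2 (0.987), which encodes an actin-capping subunit, and Lmna (0.980), which encodes lamin A. S100a6 was most like Glipr2 (0.970), Ostf1 (0.965) and Cxcr2 (0.964), the receptor through which neutrophils follow chemokines. S100a11 was most like Antxr2 (0.982), Itgam (0.975) and Cd52 (0.974).

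With ISO in WT cells, the calprotectin genes stood higher over all cells and the 4 other members lower. S100a8 went from 50412 to 58818 CPM, a log2 ratio of 0.22 (95% counting interval 0.22 to 0.23), and S100a9 from 61123 to 71098 CPM, also 0.22 (0.22 to 0.22). S100a4 went from 587 to 314 CPM (-0.90, -0.94 to -0.87) and S100a10 from 510 to 323 CPM (-0.66, -0.70 to -0.62). S100a11 went from 1638 to 1305 CPM (-0.33, -0.35 to -0.31), and S100a6 differed little, from 4077 to 3928 CPM (-0.05, -0.07 to -0.04). Of the 6 members, 2 were lower by at least 1.5-fold and none higher, where 6.5% of all 10771 genes tested passed that fold in either direction, 1% of the genes higher and 5.5% lower. The median log2 ratio of the members was -0.19, and that of all genes -0.016.

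The makeup of the libraries moved with these differences. The 5 specific-granule neutrophil markers summed to 14610 CPM in WT+PBS and 21271 CPM in WT+ISO, and the 5 azurophil-granule progenitor markers to 4162 and 5440 CPM, with 0 of 5 lower with ISO in both lists. The 5 mature neutrophil markers summed to 798 and 1108 CPM, with 2 of 5 lower. With ISO in WT the macrophage-like cluster went from 9.50% to 4.99% of cells, the dendritic cell-like cluster from 1.67% to 0.707% and the progenitor-like cluster from 16.2% to 24.7%. The 5 macrophage markers summed to 140 CPM in WT+PBS and 58.3 CPM in WT+ISO, with none at 0 and 5 of 5 lower with ISO. The 6 dendritic cell markers summed to 935 and 313 CPM in the same libraries, with none at 0 and 5 of 6 lower. S100a4 and S100a10 were thus lower in the library with fewer cells and markers of the clusters in which they were highest. The 5 monocyte markers summed to 1551 and 1563 CPM, with 4 of 5 lower with ISO, and the 4 eosinophil markers to 56.4 and 3.03 CPM. Over the 4 libraries, markers of lymphocytes (25.4 to 51.1 CPM), basophils or mast cells (0.93 to 8.94 CPM) and stem or progenitor cells (7.49 to 10.6 CPM) were low, and the 3 erythroid markers had no UMI in any library.

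When every cluster was given the same weight in each library (its share of UMIs averaged over the 4 libraries), the ISO difference of the calprotectin genes in WT was close to 0, at 0.00 for S100a8 and -0.02 for S100a9, whereas the change of cluster shares alone gave 0.22 and 0.25. For S100a4 in WT, fixed weights left -0.35 of -0.90 and the shares alone gave -0.54. For S100a10 these values were -0.24 of -0.66 and -0.45. S100a11 was the reverse, since fixed weights kept -0.25 of -0.33 and the shares alone gave -0.10. S100a6 came to -0.13 at fixed weights against 0.04 from the shares.

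Within clusters the calprotectin genes differed little with ISO in the neutrophil-like cells. In WT the log2 ratio of S100a8 was 0.03 in the progenitor-like, -0.04 in the specific-granule and -0.05 in the mature neutrophil-like cluster, and that of S100a9 -0.06, -0.11 and 0.02. In the Gpnmb and Atp6v0d2 cluster both were higher with ISO in WT, S100a8 by 0.40 (30759 to 40448 CPM) and S100a9 by 0.63 (29327 to 45262 CPM), or by 0.22 and 0.46 with each cell at equal weight. The share of cells in this cluster also went from 26.0% with PBS to 15.1% with ISO in WT. Whether the mix of cells within the cluster changed was not tested. In the macrophage-like cluster S100a8 was higher with ISO by 0.29 (0.26 to 0.32) and S100a9 by 0.20 (0.16 to 0.23). The marker C1qb supplied 289 of that cluster's 3184958 WT UMIs with PBS, against 24 of 1879572 with ISO. A change in the mix of cells within the macrophage-like cluster was not tested. This limit holds for the ISO ratios of all members there. In the dendritic cell-like cluster both genes were lower with ISO, with -0.70 for S100a8 and -0.72 for S100a9, or -1.57 and -1.53 with each cell at equal weight, on the few cells of that cluster.

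S100a4 was lower with ISO in WT in the Csta3 and Matn2 cluster, from 667 to 458 CPM (-0.54, -0.60 to -0.48), and in the macrophage-like cluster from 1781 to 1481 CPM (-0.27, -0.33 to -0.20). Over the 7 clusters its pooled interval lay below 0 in 4 and above 0 in 0. In the Gpnmb and Atp6v0d2 cluster the ratio was 0.01 pooled (-0.13 to 0.14) and -0.57 with each cell at equal weight. At resolution 0.8 a cluster led by Matn2 had 520 CPM of S100a4, against 1110 CPM in the monocyte-like cluster led by Csta3. Whether the mix of cells within the Csta3 and Matn2 cluster changed with ISO was not tested. S100a10 was lower in the Csta3 and Matn2 and macrophage-like clusters in WT too (-0.29 and -0.34). Its pooled level was higher with ISO in all 3 neutrophil-like clusters, from 38.4 to 67.3 CPM in the progenitor-like (0.81, 0.60 to 1.02), from 28.4 to 50.4 CPM in the specific-granule (0.83, 0.39 to 1.28) and from 65.3 to 100.1 CPM in the mature neutrophil-like cluster (0.62, 0.26 to 0.99). Progenitor-like cells thinned to equal depth had 36 and 53 S100a10 UMIs in all, with a mean of 0.101 per WT+PBS cell against 0.095 with ISO and a log2 ratio of -0.09 (-0.73 to 0.57). Thinning drew these at random from the 251 and 718 S100a10 UMIs of that cluster, and so few cannot decide the direction. With all UMIs and each cell at equal weight, the ratio of that cluster was 0.75. Thinned cells gave S100a10 ratios of 0.63 (-0.25 to 1.57) in the specific-granule and 0.77 (0.13 to 1.43) in the mature neutrophil-like cluster. They gave -0.22 (-0.40 to -0.04) in the Csta3 and Matn2 and -0.16 (-0.37 to 0.03) in the macrophage-like cluster. The S100a10 levels of all 3 neutrophil-like clusters lay far below the macrophage-like cluster (1533 and 1214 CPM). Of thinned cells, 9.06% to 14.2% of the mature and 4.21% to 7.51% of the specific-granule neutrophil-like cells held S100a10. The mature share lay above that of progenitor-like cells in the libraries.

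S100a6 moved in opposite directions along the neutrophil-like cells with ISO. It was higher in the progenitor-like cluster, from 1536 to 1965 CPM in WT (0.35, 0.32 to 0.39), and slightly higher in the specific-granule neutrophil-like cluster (0.07, 0.04 to 0.10). It was lower in the mature neutrophil-like cluster, from 15759 to 13068 CPM (-0.27, -0.30 to -0.24), so that the gap between mature and progenitor-like cells was narrower in WT+ISO. Thinned cells gave 0.25 (0.16 to 0.35) in the progenitor-like and -0.31 (-0.35 to -0.27) in the mature neutrophil-like cluster. Whether the mix of cells within the progenitor-like or the mature neutrophil-like cluster changed with ISO was not tested. The mature neutrophil-like cluster held 3615 UMIs of the specific-granule marker Ltf among 1348592 in WT+PBS and 9903 among 2397364 in WT+ISO. S100a6 was also lower in the Csta3 and Matn2 (-0.29) and macrophage-like clusters (-0.24). S100a11 was lower with ISO in WT in the mature neutrophil-like (-0.26), macrophage-like (-0.42) and Csta3 and Matn2 clusters (-0.32), and close to its PBS level in the progenitor-like cluster (-0.01, -0.06 to 0.04). Its level in WT+PBS was the highest of the 4 libraries in the mature neutrophil-like cluster (3445 CPM against 2650 to 2884 CPM) and in the macrophage-like cluster (2619 CPM against 1960 to 1989 CPM).

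**Figure D5:**
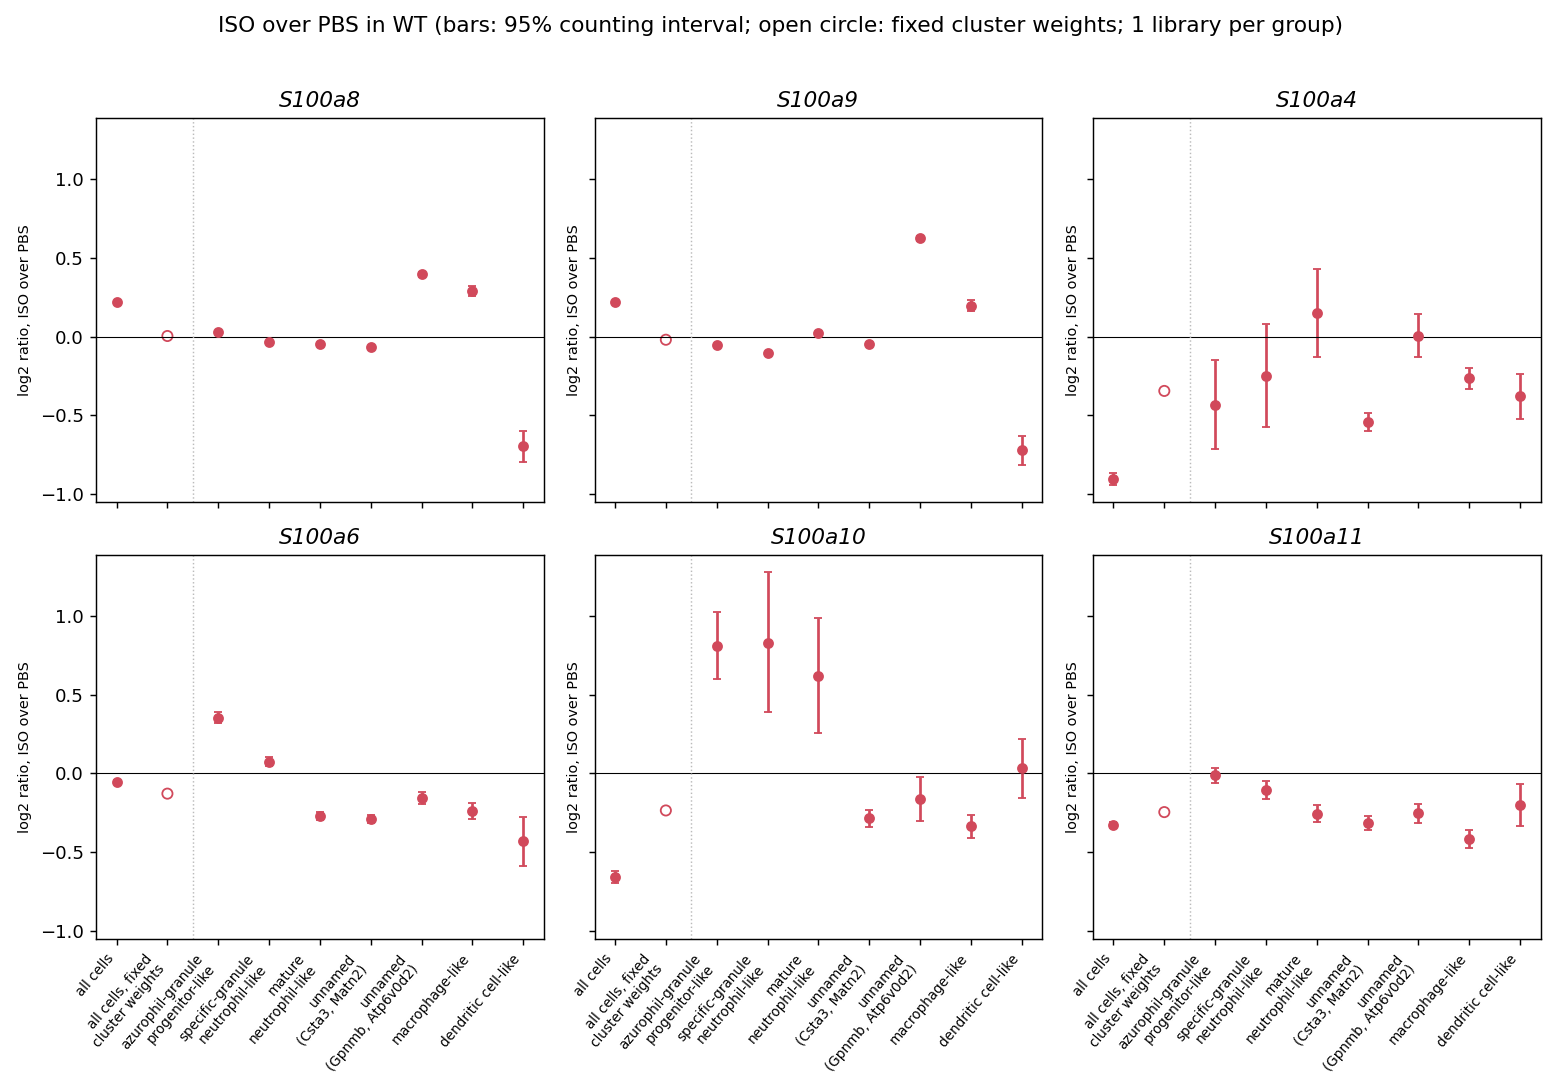
Log2 ratio of ISO over PBS for each member in WT, over all cells, over all cells with the clusters at fixed weights (open circles) and within each cluster, with 95% counting intervals where drawn. S100a6 was above 0 in the progenitor-like cluster (0.35) and below 0 in the mature neutrophil-like cluster (-0.27), and the pooled UMIs of S100a10 gave values above 0 in each neutrophil-like cluster (0.62 to 0.83), where thinned progenitor-like cells gave -0.09 (not drawn).

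A list of 20 partners, receptors and regulators of S100 proteins was followed beside the members, of which 18 had at least 100 UMIs in each library. With ISO in WT, 2 of the 18 were lower by 1.5-fold and none higher, where 5.5% of all genes tested were lower and 1% higher. These were Ahnak (-0.95), which encodes a large scaffold protein that binds S100A10 and annexin A2, from 74.9 to 38.8 CPM, and Irf8 (-0.67), a transcription factor of monocytes and dendritic cells, from 26.5 to 16.7 CPM. Anxa2, which encodes the annexin A2 partner of S100A10, had -0.43 and Anxa1, which encodes annexin A1, 0.41. Cebpe, a transcription factor of granulocytes, had 0.53 and Cacybp 0.30. The median log2 ratio of the 18 was -0.16, and that of all genes -0.016. Over clusters Ahnak had 291 CPM in the macrophage-like and 2.76 CPM in the progenitor-like cluster, whereas Anxa2 was high in macrophage-like (1350 CPM) and mature neutrophil-like cells (1186 CPM) alike. Of the calprotectin receptors, Tlr4 had 55.0 to 77.5 CPM in the libraries, and Ager, which encodes RAGE, 1.23 to 1.80 CPM.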

How the data were processed

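The authors aligned droplet scRNA-seq reads to mm10 with Cell Ranger (6.0.0 per the labels, 7.0.0 per the file headers), assigned cells to cultures by tag and deposited whole-number UMI counts per gene and cell, with 12 tag rows beside the 32285 gene rows. Cells under 200 genes or over 10% mitochondrial UMIs were left out. Scrublet called 17 doublets (0.183%), too few for the caller to have worked, and these were kept. Cells were clustered in scanpy 1.11.5 (2000 variable genes without the 17 S100 rows and S100pbp, which encodes an S100-binding protein, 30 components, 15 neighbours, Leiden resolution 0.4), and a cluster was named where 3 or more markers of a list were detected, their log2 ratios to the other cells averaged 1 or more, and 1 or more stood among its 10 leading genes. UMIs were summed by library and cluster, and members were related to gene patterns by Pearson r of log2(CPM + 1). Background shares cover genes with at least 100 UMIs in the libraries compared. Named genes were the 6 members, other S100 rows with at least 100 UMIs in a library, 20 partners, receptors and regulators, the 5 genes with the highest r to each member and the label checks. The members and all lists were chosen with earlier results of these data known. Samples were grouped by their titles, and the comparison of ISO with PBS in WT has no test because each group is 1 library. Comparisons with the other genotype are not reported here. Computations were tested on simulated data.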

Additional observations from a re-analysis of the deposited data

How the results depend on the processing

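No paired analysis was possible because only 1 library stands for a group, and for the same reason no replicate could be left out. Values are log2 ratios of ISO over PBS in WT. Reported values were 0.220 for S100a8 and S100a9 summed and -0.215 for the other 4 members summed. Clusters at fixed weights gave -0.0092, which reversed the first, and -0.180, and also turned S100a9 (-0.020). Thinning cells to 2000 UMIs gave 0.256 and -0.190, equal weight per cell 0.272 and -0.192, library totals without S100a8 and S100a9 0.250 and -0.185, and median-of-ratios size factors 0.268 and -0.167. A stricter cell filter (at least 1000 genes, at most 5% mitochondrial UMIs) gave 0.227 and -0.197, and removing called doublets gave 0.222 for the first sum.

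Neutrophil-like over other clusters, reported as 1.75 and 0.059 for the sums, became 2.05 and 0.456 with equal weight per cell and 1.97 and 0.286 with totals without S100a8 and S100a9, and the second became 0.259 with no marker required among leading genes, when 4 clusters with 68.4% of cells instead of 3 with 49.0% were neutrophil-like. It ran from -0.041 to 0.230 over the other clusterings. The share of all genes past 1.5-fold (6.5%) became 1.97% at a fold of 2 and 22.5% with at least 1 UMI in each library. The cause of these differences was not tested, and fixed weights change the makeup of clusters by construction. In all, 14 of 32 values of the summed comparisons stayed within their counting interval or spread, 17 moved and 1 reversed. Of 48 values for single members over all cells, 19 stayed, 28 moved and 1 reversed. Within clusters, thinning and equal weight per cell were chosen after seeing the data. Of 84 such values 43 stayed, 39 moved and 2 reversed, both in thinned cells: S100a10 in the progenitor-like cluster (-0.088, where equal weight per cell kept 0.75) and S100a4 in the dendritic cell-like cluster (0.038). Low counts limited S100a4 and S100a10 in the neutrophil-like clusters, and few cells limited all members in the dendritic cell-like cluster. No value of these data measures how cultures or mice vary.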
